A study of Homo sapiens with 36 samples.

Results

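Acute phase proteins are plasma proteins whose output by the liver changes in inflammation, and STAT3 is the transcription factor through which the cytokine IL-6 drives much of that change. The gene list named 10 identifiers. It files CRP, SAA4, HP, HPX, ORM1, ORM2, LBP and SERPINA3 under acute phase proteins, beside the transcription factor STAT3 and its feedback inhibitor SOCS3. Of these, 8 were rows of the deposited table, among 18919 gene rows in all, and SAA4 and HP are not analysed here. The rows were CRP (ENSG00000132693_at), HPX (ENSG00000110169_at), ORM1 (ENSG00000229314_at), ORM2 (ENSG00000228278_at), LBP (ENSG00000129988_at), SERPINA3 (ENSG00000196136_at), SOCS3 (ENSG00000184557_at) and STAT3 (ENSG00000168610_at). The symbols came with the gene list, and no table used here pairs these identifiers with names, so the names rest on that list. The 36 Affymetrix arrays measured total RNA of HepG2, a human cell line from a hepatocellular carcinoma that keeps part of the hepatocyte's secretory programme. The cells had been grown until nearly confluent and were then given fresh medium with acetaminophen (APAP), an analgesic whose overdose damages hepatocytes. The high dose was 10 mM, the low dose 0.5 mM, and the controls had 0.5% DMSO, a solvent. Sampling times of 12, 24, 48 and 72 h gave 12 groups with 3 arrays in each, which are biological replicates by their labels. The labels do not make clear whether the APAP medium also held DMSO, so the solvent and the compound cannot be told apart in the comparisons with DMSO. No group received a cytokine, and all cells were of this single line, which lacks the macrophages that release IL-6 in the liver.

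In the liver, IL-6 binds its receptor together with the signal transducer gp130, JAK kinases phosphorylate STAT3, and STAT3 enters the nucleus and raises its targets. SOCS3 is such a target and closes the loop by blocking the kinases at the receptor. CRP, SERPINA3, HPX, LBP and the orosomucoids ORM1 and ORM2 are positive acute phase genes in human liver, and C/EBP factors and glucocorticoids act on several of them beside STAT3. STAT3 is controlled mainly by phosphorylation, which an expression array does not measure.

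The values are log2 levels made by RMA, which puts all arrays on a shared distribution. Levels were compared between arrays within the same gene, and 1 unit is a change of 2-fold. In such bulk RNA, fewer cells that express a gene and less RNA of it per cell cannot be told apart. Array medians lay between 3.32 and 3.46, and arrays of the same group correlated with r of at least 0.991 across genes. Without a detection call, a level near or below the array median could not be told from background. The actin control rows differed by 1.49 to 2.45 between the 3′ and 5′ ends on 34 arrays and by 3.63 and 3.97 on 2 arrays (replicate 2 of 0.5 mM at 48 h, replicate 3 of 0.5 mM at 72 h), and 6 arrays had weak dap spike-in rows (a mean under 7). DMSO 48 h replicate 1, an array with weak spike-ins, stood 0.50 above the mean of its group mates for SERPINA3, 0.45 for STAT3 and 0.38 for ORM1.

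Promoter windows of RefSeq (GRCh38.p14, 250 bases before to 50 after the annotated start) were found by symbol for 6 of the 8 genes: CRP, HPX, ORM1, SERPINA3, SOCS3 and STAT3. Those of the genes whose level moved with dose are printed 5′ to 3′ on the strand of the gene, as the sequence next to which the values can be read. Capitals mark matches, on either strand, to 4 motifs: the STAT palindrome TTCNNNGAA, the IL-6 response core CTGGGAA, the C/EBP motif TTNNGNAA and the glucocorticoid receptor half-site TGTTCT.
ORM1, chr9:114322848-114323147, plus strand: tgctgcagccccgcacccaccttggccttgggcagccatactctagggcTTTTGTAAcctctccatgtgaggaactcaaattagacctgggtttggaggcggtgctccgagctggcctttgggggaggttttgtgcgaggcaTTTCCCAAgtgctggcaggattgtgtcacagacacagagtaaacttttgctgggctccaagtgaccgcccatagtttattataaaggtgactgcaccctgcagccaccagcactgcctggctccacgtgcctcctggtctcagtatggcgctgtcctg
SERPINA3, chr14:94612141-94612440, plus strand: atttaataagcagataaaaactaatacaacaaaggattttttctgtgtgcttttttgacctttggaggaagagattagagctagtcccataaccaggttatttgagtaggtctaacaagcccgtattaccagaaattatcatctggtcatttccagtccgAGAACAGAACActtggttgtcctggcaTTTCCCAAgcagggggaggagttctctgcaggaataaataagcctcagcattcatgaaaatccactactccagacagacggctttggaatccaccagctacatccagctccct
STAT3, chr17:42388393-42388692, minus strand: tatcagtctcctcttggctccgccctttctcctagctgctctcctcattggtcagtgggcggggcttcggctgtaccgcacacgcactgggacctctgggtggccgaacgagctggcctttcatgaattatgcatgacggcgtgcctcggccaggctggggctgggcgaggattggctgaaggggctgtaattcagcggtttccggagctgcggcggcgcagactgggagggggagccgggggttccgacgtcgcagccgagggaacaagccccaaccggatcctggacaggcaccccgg
In ORM1 the C/EBP motif matched at 201 and 108 bases before the start. In SERPINA3 the C/EBP motif matched at 63 bases before the start and the glucocorticoid half-site at 90 and 85 bases before it, the latter pair overlapping by 1 base. The STAT3 window held none of the 4 motifs. Of 35116 RefSeq promoter windows of this length, 36.8% held the C/EBP motif, 14.8% the glucocorticoid half-site, 10.8% the IL-6 core and 7.66% the STAT palindrome, so matches of this kind are common. The IL-6 core matched in HPX, at 75 bases before the start, and in 1 of the 2 SOCS3 windows, at 185 bases before it, and the STAT palindrome in none of the 6 genes. A match is a description of letters in a window and says nothing of binding.

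The first question was which of these genes differed between 10 mM APAP and the solvent at each time. ORM1 and ORM2 were lower than in DMSO at all 4 times, by up to 16.4-fold and 15.8-fold at 48 h, and STAT3 was higher at all 4 times, by 1.60-fold to 1.94-fold. CRP, HPX, LBP, SERPINA3 and SOCS3 did not pass the test at 10 mM at any time. At 12 h, 3 of the 8 genes passed the test (limma, Benjamini-Hochberg adjusted p under 0.05 over 18919 genes), against 26.6% of all genes. The count was also 3 at 24 h (29.0% of all genes), 48 h (31.2%) and 72 h (33.4%), and 3 again in the mean of the 4 times (45.8%). The share of the list was thus near that of all genes, and its median difference of -0.06 at 48 h stood beside 0.01 over all genes. What set these genes apart from each other was the size and the direction of the change, as the plot of differences from DMSO shows.

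**Figure D1:**
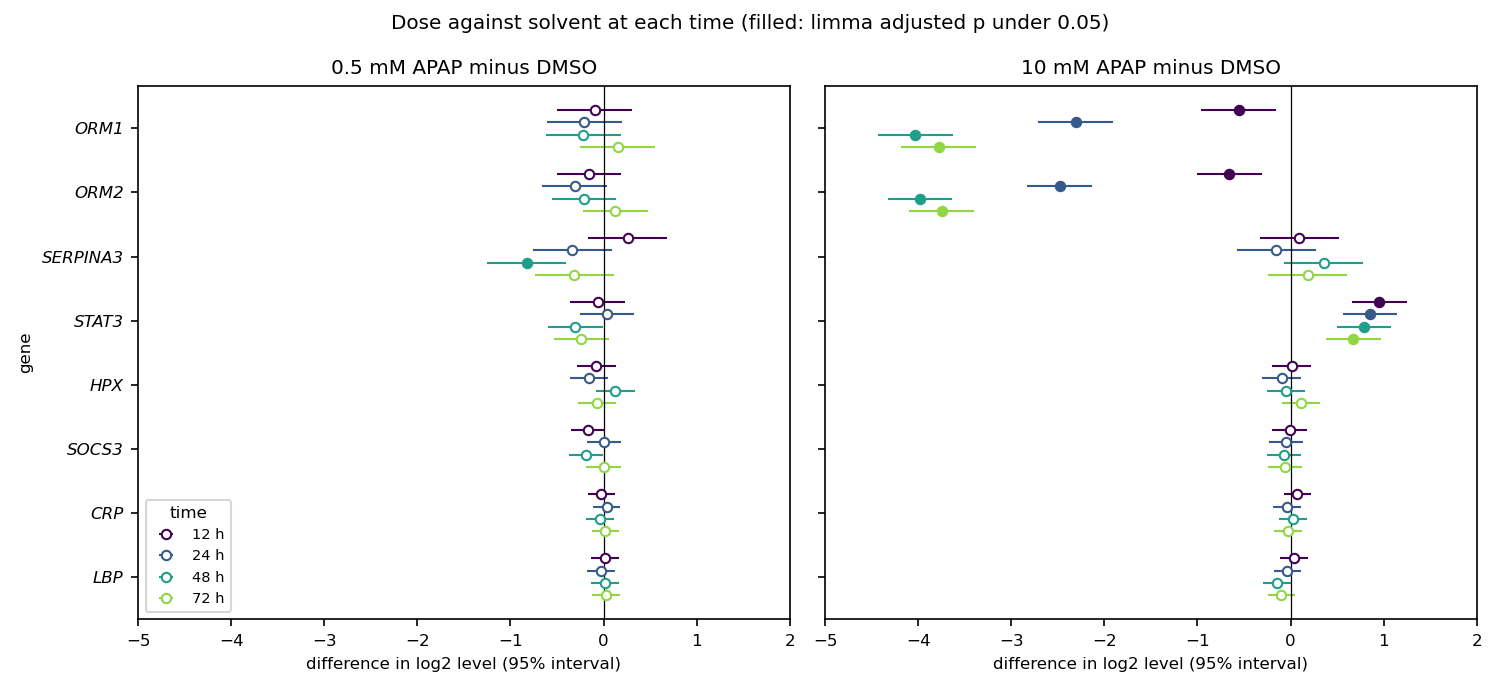
Difference in log2 level from DMSO at 0.5 mM APAP (left) and 10 mM APAP (right) for each gene, with 95% intervals from the limma fit, colours for the 4 times and filled points for adjusted p under 0.05. At 10 mM the ORM1 and ORM2 points lie between -0.56 and -4.03, the STAT3 points between 0.68 and 0.95, and those of the other genes near 0.

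ORM1 encodes the main form of alpha-1-acid glycoprotein, a plasma protein that binds basic drugs and dampens inflammation. In DMSO its log2 level was 13.02, 13.10 and 12.93 on the 3 arrays at 12 h, and at 10 mM it was 12.41, 12.41 and 12.57. At 24 h it was 12.74, 12.71 and 12.85 in DMSO and 10.30, 10.87 and 10.21 at 10 mM. The groups did not overlap at either time, and the gap widened within a day. At 48 h the levels were 13.16, 12.78 and 12.78 in DMSO and 8.49, 9.64 and 8.50 at 10 mM. At 72 h they were 12.95, 13.16 and 13.36 in DMSO and 9.17, 9.68 and 9.29 at 10 mM. All 12 DMSO arrays stood above all 12 arrays at 10 mM, and replicate 2 was the highest of the 10 mM arrays at 24, 48 and 72 h.

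From 12 to 72 h the difference of ORM1 from DMSO was -0.56, -2.31, -4.03 and -3.78, each ± 0.20 (SE), with limma adjusted p of 0.0349, 1.4e-10, 6.9e-16 and 1.8e-15. In linear terms the level was lower by 1.47-fold, 4.95-fold, 16.4-fold and 13.7-fold. The effect was not the same at all times (limma F test, adjusted p = 1.4e-10). The call at 12 h was not firm. Without 10 mM APAP 12 h replicate 1 the difference was -0.53 (adjusted p = 0.0906), without replicate 2 it was -0.53 (0.0964), and without DMSO 12 h replicates 1, 2 and 3 it was -0.55 (0.0796), -0.51 (0.108) and -0.60 (0.0507). The calls at 24, 48 and 72 h held without any single array.

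ORM2 encodes the second form of the same glycoprotein and lies beside ORM1 in a pair of closely similar genes. At 12 h its level was 12.70, 12.78 and 12.54 in DMSO and 11.99, 12.03 and 12.04 at 10 mM. At 48 h it was 12.65, 12.30 and 12.32 in DMSO and 8.45, 8.95 and 7.92 at 10 mM. The groups were apart at both times, and also at 24 h, where the means were 12.47 in DMSO and 9.99 at 10 mM, and at 72 h, where they were 12.54 and 8.79. From 12 to 72 h the difference was -0.66, -2.48, -3.98 and -3.75, each ± 0.17 (SE), with limma adjusted p of 0.0036, 1.7e-12, 6.4e-17 and 1.1e-16. It too differed between times (limma F test, adjusted p = 2.5e-11).

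How far ORM1 and ORM2 are separate measurements is uncertain, since the probes behind the 2 rows are not given and the transcripts of such close paralogs can bind the same probes. Across the 12 group means the 2 rows had r of 1.00, a description only, as the points share arrays. In the plot of ORM1 against ORM2 the group means at 10 mM run down close to a single line from 12 to 48 h. The arrays of 10 mM at 48 h spread about it, with ORM1 minus ORM2 from 0.03 to 0.69 (SD 0.353, n = 3). In each other group the SD of that difference was at most 0.103. The 72 h mean was back above that of 48 h in both rows (9.38 ± 0.26 and 8.88 ± 0.66 for ORM1, SD, n = 3), a step smaller than the spread at 48 h.

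**Figure D2:**
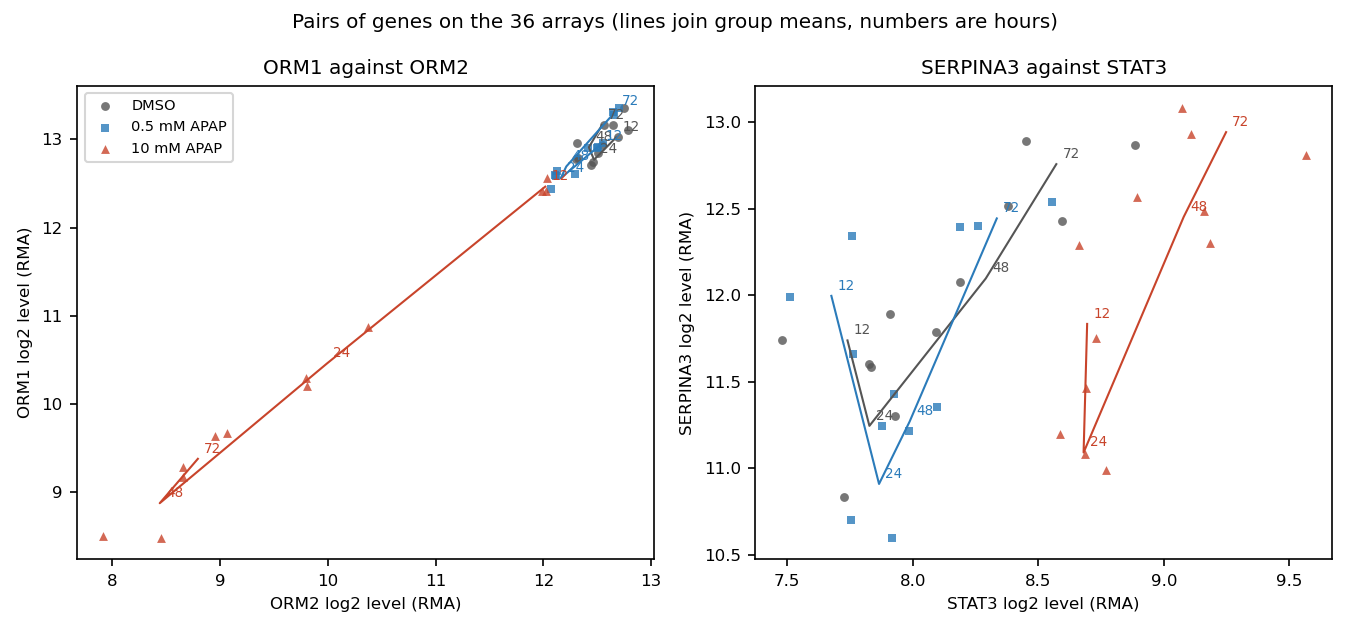
Log2 levels of ORM1 against ORM2 (left) and of SERPINA3 against STAT3 (right) on the 36 arrays, coloured by treatment, with lines that join the group means from 12 to 72 h. The ORM1 and ORM2 means fall together along a single line at 10 mM, with the arrays of 48 h spread about it. In the right panel the 10 mM arrays lie further right, at higher STAT3. The SERPINA3 means run from 11.24 to 12.76 in DMSO, 10.91 to 12.44 at 0.5 mM and 11.09 to 12.94 at 10 mM.

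STAT3 is the signal-activated transcription factor of the pathway and the only positive change of the list at 10 mM. At 12 h its level was 7.48, 7.83 and 7.91 in DMSO and 8.73, 8.69 and 8.66 at 10 mM. At 24 h it was 7.73, 7.93 and 7.83 in DMSO and 8.77, 8.58 and 8.68 at 10 mM. The groups did not overlap, and the 10 mM arrays lay closer together than those of DMSO. At 48 h the level was 8.59, 8.19 and 8.09 in DMSO and 9.18, 8.89 and 9.16 at 10 mM. At 72 h it was 8.89, 8.45 and 8.38 in DMSO and 9.57, 9.11 and 9.07 at 10 mM. Again no array overlapped, but the DMSO level at 72 h had come close to that of 10 mM at 12 h.

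In order of time STAT3 differed from DMSO by 0.95, 0.85, 0.79 and 0.68, each ± 0.14 (SE), with limma adjusted p of 5.0e-06, 2.2e-05, 5.5e-05 and 0.00034. Though the estimates ran downwards, the F test did not find the effect to differ between times (adjusted p = 0.792). The mean over the times was 0.82 ± 0.07 (adjusted p = 3.8e-11), which is 1.76-fold. All 4 calls held without any single array, and with a minimum change of 1.5-fold required none of them did (adjusted p = 0.148 to 1), though the mean over times still passed (0.018).

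SERPINA3 encodes alpha-1-antichymotrypsin, an inhibitor of neutrophil proteases and a classical STAT3-driven acute phase protein. Its level lay above the array median on all 36 arrays, from 10.60 to 13.09. At 48 h it was 12.43, 12.08 and 11.78 in DMSO, 11.21, 11.24 and 11.35 at 0.5 mM, and 12.30, 12.57 and 12.49 at 10 mM. The 0.5 mM arrays lay below all others of that time, while the DMSO and 10 mM arrays overlapped. At 72 h it was 12.87, 12.89 and 12.52 in DMSO, 12.54, 12.40 and 12.40 at 0.5 mM, and 12.81, 12.93 and 13.09 at 10 mM. There the 0.5 mM arrays lay below all of the 10 mM arrays and overlapped those of DMSO. At 12 h and at 24 h all 3 treatments overlapped.

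Against DMSO, SERPINA3 at 10 mM differed by 0.10, -0.15, 0.36 and 0.19 from 12 to 72 h, each ± 0.21 (SE), and no value passed the test (smallest limma adjusted p = 0.224, at 48 h, with a 95% interval of -0.07 to 0.78). At 0.5 mM the difference was 0.26, -0.34, -0.83 and -0.31 at the 4 times, of which the 48 h value passed the test (adjusted p = 0.0188), a level 1.77-fold lower. That call rested on single arrays. Without DMSO 48 h replicate 1, the array that stood above its mates, it was -0.66 (adjusted p = 0.220), without 0.5 mM APAP 48 h replicate 1 it was -0.80 (0.0641), and without replicate 2, an array with widely spaced actin rows, it was -0.81 (0.0770). With the 9 arrays of 48 h alone in the fit the adjusted p was 0.0876, with array weights 0.0999, and without the 6 arrays with weak spike-ins 0.215.

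**Figure D3:**
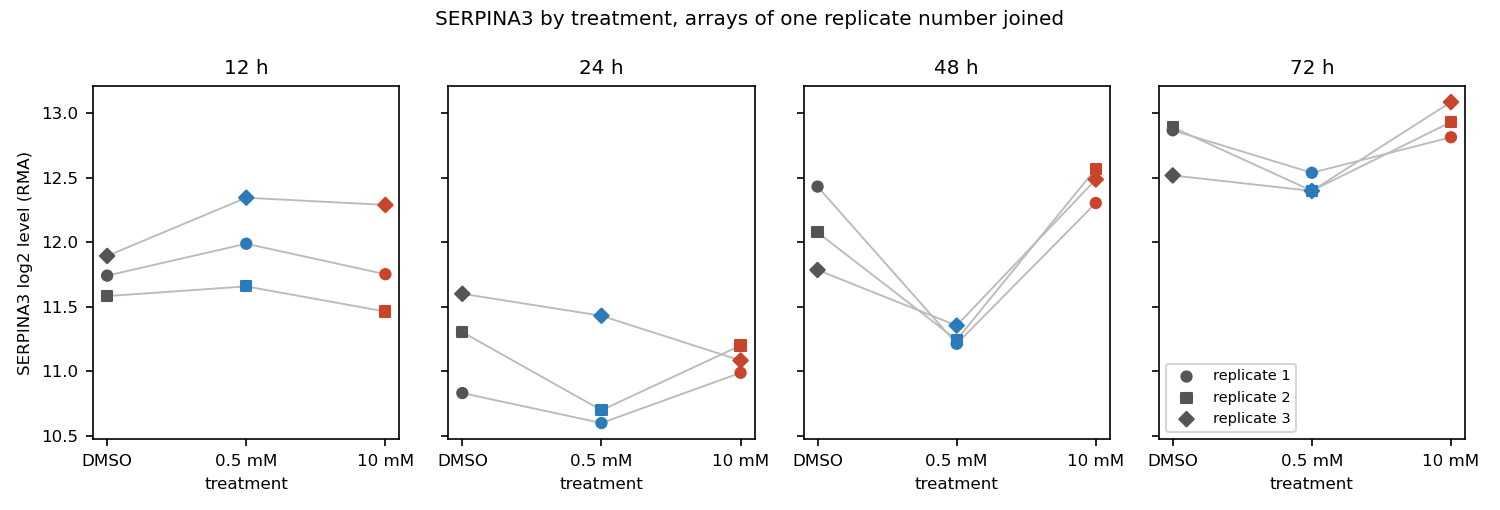
SERPINA3 log2 level by treatment at each time, with a symbol for each replicate number and lines that join arrays of the same number. At 48 h all 3 numbers are lower at 0.5 mM than at DMSO and 10 mM, and at 12 h the order of the numbers is the same in each treatment.

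HPX encodes hemopexin, the plasma scavenger of free heme. It did not pass the test against DMSO at either dose, and its level changed with time in culture. At 12 h its level was 4.27, 4.11 and 4.23 in DMSO, 3.98, 4.12 and 4.28 at 0.5 mM, and 4.05, 4.28 and 4.31 at 10 mM. At 48 h it was 3.08, 3.22 and 3.33 in DMSO, 3.19, 3.47 and 3.36 at 0.5 mM, and 3.12, 3.18 and 3.19 at 10 mM. All 9 arrays of 48 h stood below all 9 arrays of 12 h. The level differed between times in DMSO (limma F test, adjusted p = 3.3e-09), at 0.5 mM (4.0e-08) and at 10 mM (1.9e-08). Against DMSO the largest difference was 0.11 at 10 mM and -0.15 at 0.5 mM, and the 95% intervals over the times ran from -0.30 to 0.32 at 10 mM and from -0.36 to 0.33 at 0.5 mM. The levels were low, with 15 of 36 arrays below their own array's median, all of them arrays of 48 or 72 h. Most levels at those times could thus not be told from background. The fall with time ended near background, and an effect of dose on the transcript could be missed there.

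CRP, LBP and SOCS3 were below the array median on all 36 arrays. CRP, the clinical marker of inflammation, ranged from 1.96 to 2.32, LBP, which carries bacterial lipopolysaccharide to its receptor, from 1.86 to 2.13, and SOCS3 from 2.70 to 3.33. At these levels a transcript that is absent and a small change in it would look alike. At 10 mM the differences from DMSO ran from -0.04 to 0.07 for CRP, from -0.14 to 0.03 for LBP and from -0.07 to -0.01 for SOCS3. The 95% intervals stayed within -0.18 and 0.22 for CRP, -0.29 and 0.18 for LBP and -0.26 and 0.17 for SOCS3. LBP at 48 h was the nearest to a call (1.91, 1.86 and 1.88 at 10 mM against 2.02, 1.97 and 2.09 in DMSO, limma adjusted p = 0.153). It passed the test only after each array had been centred on its median (-0.19, adjusted p = 0.0435), as did the mean over times (-0.10, 0.0209).

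**Figure D4:**
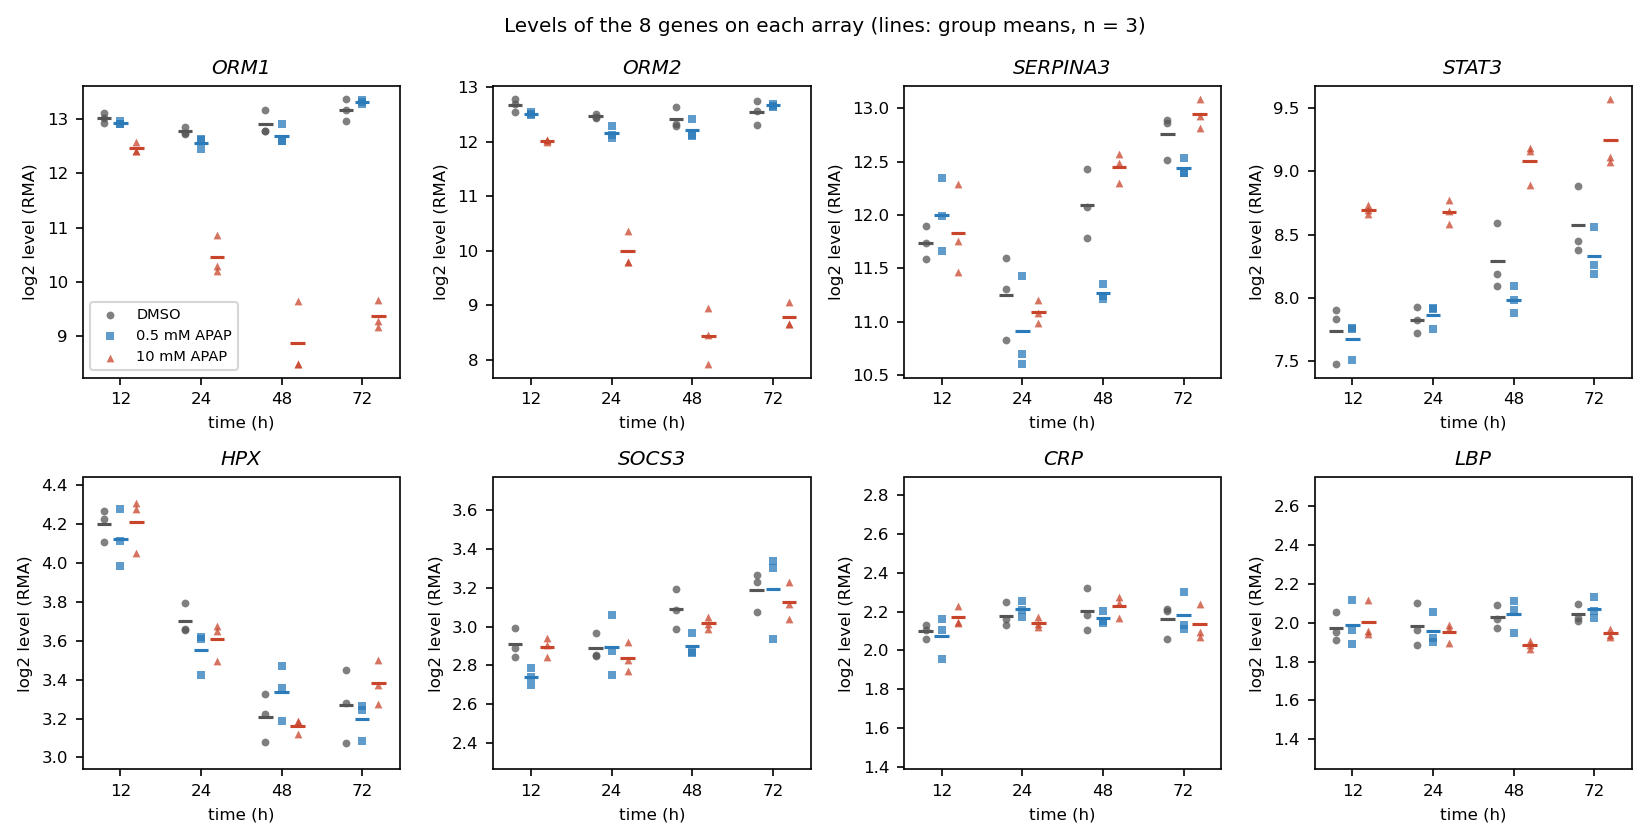
Log2 level of each of the 8 genes on every array by time, with points for the 3 arrays of a group, short horizontal lines for the group means, and a vertical axis of its own for each gene. ORM1 and ORM2 fall and STAT3 is raised at 10 mM, HPX falls from 12 to 48 h in all 3 treatments, the SERPINA3 means are lowest at 24 h, and CRP and LBP stay between 1.86 and 2.32.

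At the low dose the question was whether any of the changes at 10 mM appeared at 0.5 mM. At 12, 24 and 72 h 0 of the 8 genes passed the test, and at 48 h SERPINA3 alone did. Of all genes 0.00529%, 0.0159%, 3.45% and 0.761% passed from 12 to 72 h, and in the mean over times 6.21% of all genes and 0 of these did. ORM1 at 0.5 mM differed from DMSO by -0.09, -0.21, -0.22 and 0.15 at the 4 times, with a mean of -0.09 (95% interval -0.29 to 0.11). ORM2 had a mean of -0.14 (-0.31 to 0.04). At 10 mM, against the same DMSO arrays, the mean changes were -2.67 and -2.72. STAT3 at 0.5 mM had a mean difference of -0.14 (-0.29 to 0.01), opposite in sign to its rise at 10 mM and not past the test (limma adjusted p = 0.316). SERPINA3 had a mean of -0.30 ± 0.10 (SE; adjusted p = 0.0795), which passed the test without 0.5 mM APAP 12 h replicate 3 (-0.35, 0.0451), 0.5 mM APAP 24 h replicate 3 (-0.37, 0.0190), DMSO 24 h replicate 1 (-0.36, 0.0330) or DMSO 48 h replicate 3 (-0.34, 0.0404). By the F test 0 of the 8 genes, and 0.0846% of all genes, had a low-dose effect that varied with time.

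The doses were then set against each other within each time. The difference itself leaves out the solvent arrays, which still enter its SE and test through the shared fit. From 12 to 72 h the numbers of the 8 genes that passed the test were 2, 3, 4 and 3, beside 24.3%, 27.6%, 28.6% and 31.3% of all genes. In the mean over times 4 passed (42.9% of all genes). STAT3 was higher at 10 mM than at 0.5 mM by 1.02, 0.82, 1.09 and 0.91 ± 0.14 (SE) at the 4 times, with the 48 h levels of 9.18, 8.89 and 9.16 against 7.98, 7.88 and 8.10. Every 10 mM array was above every 0.5 mM array at each time. With a minimum change of 1.5-fold required, the STAT3 calls at 12, 24 and 72 h were lost (adjusted p = 0.0697, 0.748 and 0.166) and that at 48 h held (0.0167). ORM2 differed by -0.50 ± 0.17 (SE; limma adjusted p = 0.0295) at 12 h and was 14.7-fold lower at 72 h. Its call at 12 h was lost without any single array among the 6 compared (adjusted p = 0.0608 to 0.0803). ORM1 followed with -0.46 at 12 h, which missed the threshold (0.0932), and with -2.10, -3.81 and -3.93 at the later times. Its 12 h value passed with the arrays of 12 h alone in the fit (0.0011), with array weights (0.0079) and without 10 mM APAP 48 h replicate 2 (0.0131).

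SERPINA3 was the only other gene that separated the doses. It was higher at 10 mM than at 0.5 mM by 1.18 ± 0.21 (SE; limma adjusted p = 4.0e-05) at 48 h, or 2.27-fold. The call held without any single array and was lost when a minimum change of 1.5-fold was required (0.0661). The mean over times was 0.43 ± 0.10 (0.00098), which was lost with that minimum too (1). Within replicate numbers the difference at 48 h was 1.09, 1.33 and 1.13. At 72 h it was 0.50 ± 0.21 (adjusted p = 0.068). That value passed the threshold with the arrays of 72 h alone in the fit (0.0082), with array weights (0.0350) and with low genes filtered out (0.0418). It also passed with replicate number as a block in the fit (0.0151). The same held without 10 mM APAP 12 h replicate 3 (0.0486) or 0.5 mM APAP 24 h replicate 3 (0.0408). At 12 h it was -0.16 and at 24 h 0.18, neither past the test. The difference between the doses was itself not the same at all times for SERPINA3 (limma F test, adjusted p = 0.0049), ORM1 (2.4e-10) and ORM2 (3.1e-11), that is for 3 of the 8 genes and 23.0% of all genes. Against DMSO the effect of 10 mM differed between times for ORM1 and ORM2, 2 of the 8 genes, and for 21.3% of all genes.

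Levels also moved with time within a treatment. In DMSO 4 of the 8 genes differed between times (30.7% of all genes), at 10 mM 5 (25.3%) and at 0.5 mM 6 (33.9%). SERPINA3 in DMSO had means of 11.74 ± 0.16, 11.24 ± 0.39, 12.10 ± 0.32 and 12.76 ± 0.21 (SD, n = 3) in order of time (limma F test, adjusted p = 5.7e-06). It had its lowest mean at 24 h and its highest at 72 h in each treatment (0.5 mM, 1.3e-06; 10 mM, 2.9e-07). STAT3 in DMSO went from 7.74 ± 0.23 at 12 h to 8.57 ± 0.27 at 72 h (3.9e-05), and at 10 mM from 8.69 ± 0.03 to 9.25 ± 0.28 (0.0041). The STAT3 call at 10 mM was lost without the 6 arrays with weak spike-ins (0.118). SOCS3 in DMSO had means of 2.91, 2.89, 3.09 and 3.19 from 12 to 72 h (0.022). The call was lost without DMSO 72 h replicate 1 (0.0871) or replicate 3 (0.0711), and without the 6 arrays with weak spike-ins (0.0812). The SOCS3 levels lay below the array median on all 36 arrays and could not be told from background. ORM1 and ORM2 did not pass in DMSO (0.476 and 0.710). At 0.5 mM they did (0.0135 and 0.0458), with means for ORM1 of 12.92, 12.56, 12.69 and 13.31. The ORM1 call at 0.5 mM was lost without 0.5 mM APAP 72 h replicate 2 (0.0516), and that of ORM2 without any of 20 of the 36 arrays taken singly (up to 0.107). SOCS3 at 10 mM (0.0616) passed without 0.5 mM APAP 24 h replicate 1 (0.0465) or 72 h replicate 1 (0.0237).

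The genes of the list did not share a single pattern. Across the 12 group means, which share arrays, STAT3 had r of -0.77 with ORM1, -0.80 with ORM2 and 0.59 with SERPINA3, and SERPINA3 had r of -0.26 with ORM1. Other pairs with a large r were LBP with ORM1 (0.80) and ORM2 (0.77), SERPINA3 with SOCS3 (0.74) and HPX with SOCS3 (-0.71). These values describe the 12 groups and carry no test. Over the 3938 other genes whose group means spanned at least 1 unit and reached above 5, the row most like ORM1 was ENSG00000187049 (r = 0.99), and that most like ORM2 was ENSG00000091583 (r = 0.99). The row most like STAT3 was ENSG00000164938 (r = 0.98). Since these rows were picked for following the group means, their own differences between treatments are not tested. For the other 5 genes the closest row had r from 0.75 for CRP to 0.97 for HPX. Each r is the highest over 3938 rows on 12 points, so its size alone does not show a link between genes. CRP, LBP and SOCS3 also lay below the array median on every array.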

How the data were processed

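The members and lists were chosen with earlier results of these data known. The authors deposited log2 levels, 1 row per Ensembl identifier, made by RMA per the submitters' processing notes (version, probe set definition and build: not given in the sources used here). The 18981 rows held 18919 genes and 62 control rows. Levels ran from 0.61 to 15.29. No further normalization or filter was applied. The labels' extraction text speaks of 24 h for all samples; the times used are those of the titles and time labels.

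The model had 1 mean per group (12 groups, 36 arrays, 24 residual degrees of freedom) and was run in R 4.3.3 with lmFit and eBayes of limma 3.58.1. Benjamini-Hochberg adjustment covered all 18919 genes, calls were made at 0.05, and intervals are 95% intervals from the moderated fit. Precision is limited by the number of arrays, with a median SE of 0.12 for 2 groups compared. The fit was tested on simulated data. Figures used matplotlib 3.10.9.

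All 8 rows present were named whatever their values; for each, the row most like it in group means was taken. The pathway gene lists and cell type markers set by symbol were not run, since 0 of 18919 identifiers matched the reference table (59792 rows, GRCh38.p14).

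Replicate numbers come from the titles. Deviations from group means of same-numbered arrays had r of -0.03 to 0.35, and all 3 pairs exceeded 0.1 in 7 of 12 comparisons of 2 treatments within a time: 10 mM against DMSO at 24, 48 and 72 h, 0.5 mM against DMSO at 48 and 72 h, and the doses at 12 and 48 h. The numbers were taken to pair arrays there. At 72 h this rule paired each dose with DMSO but not the doses with each other. It therefore cannot settle whether equal numbers mark arrays that belong together. The settings varied were the samples in the model (a single time, or each array left out), a block for replicate number, the scaling (medians centred, or quantiles again), low levels removed, a robust trended prior, array weights and a minimum change of 1.5-fold; 2 added after seeing the data left out arrays with weak dap rows or actin ends over 3 apart.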

Additional observations from a re-analysis of the deposited data

Results flagged for a closer look

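Effects that differed between times, by limma's F test of the difference itself over all genes, were found for 3 genes. The difference of 10 mM APAP from DMSO grew from -0.56 at 12 h to -4.03 at 48 h for ORM1 (adjusted p = 1.4e-10) and from -0.66 to -3.98 for ORM2 (2.5e-11). The difference of 10 mM from 0.5 mM APAP went from -0.46 at 12 h to -3.93 at 72 h for ORM1 (2.4e-10) and from -0.50 to -3.87 for ORM2 (3.1e-11). For SERPINA3 the difference between the doses was -0.16, 0.18, 1.18 and 0.50 from 12 to 72 h (0.0049). ORM1 and ORM2 may share probes and are not independent.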

How the results depend on the processing

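No value of the 8 genes changed direction with a call under any setting. The paired fit, with replicate number as a replicate block within each time, changed no call in the 7 comparisons where numbers were taken to pair the arrays. Elsewhere it called 1 gene at 0.5 mM in the mean over times (SERPINA3, adjusted p = 0.0148) and SERPINA3 between doses at 72 h (0.0151). In that fit the F tests of time for SOCS3 in DMSO (0.0858) and STAT3 at 10 mM (0.0576) and 0.5 mM (0.0924) did not pass. As each time had blocks of its own, these time tests compared fitted levels of a single replicate number and not group means. They therefore cannot show whether the changes with time depend on pairing. The number of genes called at 0.5 mM at 48 h was 0 with 1 time in the fit, array weights, a minimum 1.5-fold change, or without arrays with actin ends over 3 apart or weak dap rows, and 0 to 1 over single arrays left out. With the minimum change it was 0 at 12 h for 10 mM against DMSO and for the doses, where leaving out the weak dap rows gave 1 and single arrays 1 to 3. In the mean over times at 0.5 mM it was 1 with the low-level filter, which kept 4 of the 8 genes, and 0 to 1 over single arrays; the filter gave 2 for the time test in DMSO. A second quantile normalization lost ORM1 at 12 h (0.0593). The cause was not tested. The time test of ORM2 at 0.5 mM was lost without any of 20 of the 36 arrays (adjusted p up to 0.107). Depth cannot be given for arrays. CRP, LBP and SOCS3 lay below the array medians, as did HPX on most arrays of 48 and 72 h. Their intervals there bound the measured signal and not the transcript.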
